A study of Mus musculus with 6 samples.

Results

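The B cell identity genes were 9 transcripts chosen as marks of mature B lymphocytes: Cd79a, Cd79b, Ighm, Ighd, Ms4a1, Cd22, Cr2, Fcer2a and Pax5. Of these, 8 had a row among the 39171 gene identifiers of the libraries, and Ighd was not analysed here. They were read in messenger RNA of splenic CD4+ T cells, isolated with a magnetic kit from C57BL/6 mice of premenopausal age. The AngII group was 3 mice given angiotensin II, the peptide that raises blood pressure, at 800 ng/kg/min from osmotic minipumps for 14 days from 10 weeks of age. The Control group was 3 untreated mice of the same strain and age. Each mouse gave 1 library, values are FPKM (fragment counts scaled by transcript length and by library size), and all 8 genes passed the minimum mean of 1 FPKM for testing.

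A B cell recognises antigen with a membrane immunoglobulin, at first of the IgM and IgD classes, which signals through the paired chains CD79A and CD79B. CD22 is an inhibitory lectin beside that receptor, while CR2 (CD21) binds complement fragments and lowers the threshold for activation. FCER2A (CD23) is the low-affinity receptor for IgE and is high on follicular B cells, whereas CR2 is highest on marginal zone B cells of the spleen. MS4A1 is the surface protein CD20, and PAX5 is the transcription factor that holds cells in the B lineage. CD4+ T cells are not known for this set of transcripts. In bulk RNA, fewer B cells and less RNA per B cell cannot be told apart.

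The B cell transcripts were present in every library and differed more between mice of the same group than between AngII and Control. In 7 of the 8 genes the highest 2 values were those of AngII replicate 3 and Control replicate 3, an order found in 6.13% of the 11842 genes tested. None of the 8 passed the test for a difference between the groups. Ighm was the exception to the shared order, with AngII replicate 2 and Control replicate 3 at its top.

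Promoters of the genes that moved together are shown here for Cd79a, Cd22 and Cr2, from the RefSeq table of build GRCm38.p6, which held 5 of the 9 genes in 7 sequences. Each runs from 250 bases before to 50 bases after an annotated start, 5′ to 3′ on the strand of the gene. Capitals mark matches, on either strand, to motifs that B lineage factors are known to bind: the octamer ATGCAAAT of the OCT factors, the EBF core CCCNNGGG, and the E-box forms CAGCTG and CAGGTG of E2A. The Cd79a sequence is at chr7:24897247-24897546 (plus strand), that of Cd22 at chr7:30878979-30879278 (minus strand) and that of Cr2 at chr1:195176670-195176969 (minus strand).
Cd79a: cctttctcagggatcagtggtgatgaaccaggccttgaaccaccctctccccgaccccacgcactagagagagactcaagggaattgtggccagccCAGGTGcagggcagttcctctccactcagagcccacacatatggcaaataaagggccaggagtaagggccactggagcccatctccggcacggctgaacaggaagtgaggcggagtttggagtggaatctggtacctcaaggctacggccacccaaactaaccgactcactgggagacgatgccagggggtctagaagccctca
Cd22: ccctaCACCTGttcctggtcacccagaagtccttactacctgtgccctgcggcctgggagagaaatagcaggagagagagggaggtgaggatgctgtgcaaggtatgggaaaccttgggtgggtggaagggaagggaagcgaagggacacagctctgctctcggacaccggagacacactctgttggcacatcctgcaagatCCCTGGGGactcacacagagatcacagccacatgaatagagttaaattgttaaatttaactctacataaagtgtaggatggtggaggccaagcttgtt
Cr2: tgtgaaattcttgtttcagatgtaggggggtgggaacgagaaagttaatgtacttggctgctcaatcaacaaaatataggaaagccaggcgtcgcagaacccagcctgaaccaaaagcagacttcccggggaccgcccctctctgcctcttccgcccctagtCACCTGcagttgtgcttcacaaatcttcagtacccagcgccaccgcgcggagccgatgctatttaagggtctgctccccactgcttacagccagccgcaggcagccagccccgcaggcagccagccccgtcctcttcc

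The E-box CAGGTG was found 154 bases before the start of Cd79a, 88 before that of Cr2 and 245 before that of Cd22. Of the 7 sequences 4 held it, against 20.2% of all 32851 promoters in the table. Several of the 7 are starts of Fcer2a, so they do not stand for 7 separate genes. The EBF core was found in 1 of the 7, 48 bases before the start of Cd22 (13.7% of all promoters). CAGCTG was also found in 1, at a start of Fcer2a (16.3% of all), and the octamer in 0 of 7 (1.74% of all). The Pax5 sequence and the other starts of Fcer2a held none of these motifs. These are matches of letters in a short window and describe no binding.

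Cd79a (ENSMUSG00000003379, chromosome 7, 24897381 to 24902197 in GENCODE M21 on GRCm38), the CD79A chain, had 8.50, 10.1 and 38.0 FPKM in AngII replicates 1, 2 and 3, against 10.5, 15.9 and 36.5 FPKM in Control replicates 1, 2 and 3. The group means were 18.9 ± 16.6 FPKM in AngII and 21.0 ± 13.7 in Control (SD, n = 3 each). Replicate 3 of each group was high, the other libraries were low, and the groups overlapped. The log2 fold change of FPKM + 1 was -0.27 (SE 0.67, limma adjusted p = 0.99989), with a 95% interval from -1.91 to 1.36. The ends of that interval correspond to 0.266 and 2.56 times the Control level on the scale of FPKM + 1.

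Cd79b (chromosome 11, 106311341 to 106314762), the partner chain, had 12.7, 14.8 and 33.3 FPKM in the AngII libraries, against 12.3, 16.3 and 33.9 FPKM in the Control libraries. The same pair of libraries was high, at nearly equal values. The log2 fold change was -0.04 (SE 0.48, limma adjusted p = 0.99989, 95% interval -1.20 to 1.13). The 2 chains form a dimer in the receptor, and their FPKM, which is per transcript length, had means of 20.6 for Cd79b and 19.9 for Cd79a over the 6 libraries. Cd79b was the higher of them in 4 of the 6 libraries.

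Ms4a1 (chromosome 19, 11249675 to 11266241), which encodes CD20, had 6.10, 6.74 and 20.2 FPKM in the AngII libraries, against 5.85, 9.25 and 20.7 FPKM in the Control libraries. Here too replicate 3 stood above the rest in both groups, and the ranges of the groups almost coincided. The log2 fold change was -0.13 (SE 0.57, limma adjusted p = 0.99989).

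**Figure D1:**
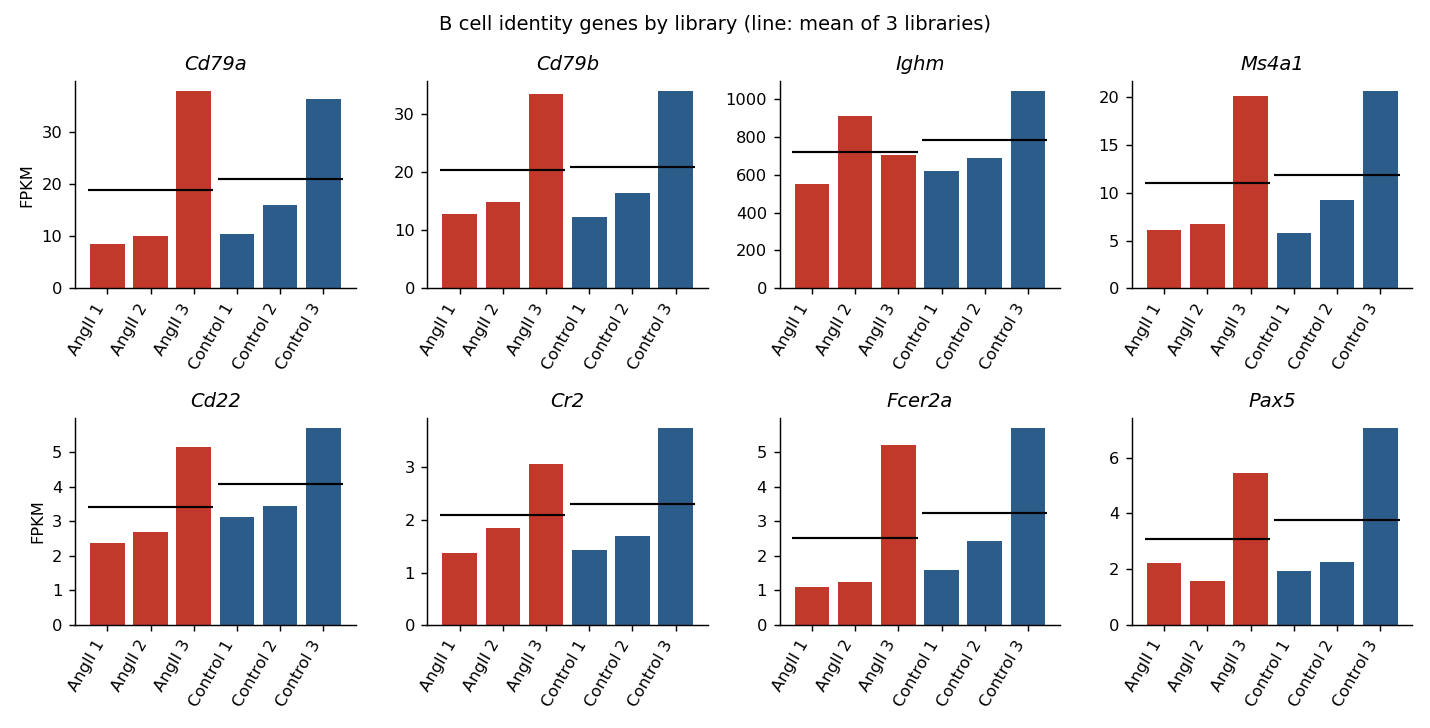
FPKM (linear axis from 0) of the 8 measured B cell genes in each library, AngII in red and Control in blue, with a black line at each group mean of 3 libraries. Replicate 3 of both groups is highest for every gene shown except Ighm, whose highest bars are Control replicate 3 and AngII replicate 2.

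The less abundant surface receptors showed the same order. Cd22 (chromosome 7, 30865402 to 30880342) had 2.37, 2.68 and 5.16 FPKM in AngII libraries, against 3.12, 3.43 and 5.71 FPKM in Control libraries. The groups overlapped through AngII replicate 3. Its log2 fold change was -0.23 (SE 0.29, limma adjusted p = 0.99989, 95% interval -0.95 to 0.49).

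Fcer2a (chromosome 8, 3681737 to 3694175), the CD23 gene, had 1.11, 1.26 and 5.19 FPKM in AngII libraries, against 1.59, 2.43 and 5.71 FPKM in Control libraries. Cr2 (chromosome 1, 195136811 to 195176716) had 1.38, 1.85 and 3.07 FPKM in AngII libraries, against 1.43, 1.69 and 3.76 FPKM in Control libraries. Fcer2a spread more widely over the libraries than Cr2, with a highest value 5.14 times the lowest, against 2.72 times for Cr2. The log2 fold changes were -0.34 for Fcer2a (SE 0.53) and -0.06 for Cr2 (SE 0.32), neither past the limma threshold.

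Pax5 (chromosome 4, 44524757 to 44710487), the lineage factor, had 2.24, 1.59 and 5.44 FPKM in AngII libraries, against 1.92, 2.26 and 7.08 FPKM in Control libraries. Control replicate 3 was the highest library and AngII replicate 3 the next. Its log2 fold change was -0.17 (SE 0.50, limma adjusted p = 0.99989). It lay above 1 FPKM in all 6 libraries.

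Ighm (ENSMUSG00000076617, chromosome 12, 113418558 to 113422730), the constant region of the IgM heavy chain, was far above the other members and did not share their order. It had 550, 908 and 704 FPKM in AngII libraries, against 620, 689 and 1042 FPKM in Control libraries, with means of 720.5 ± 180 in AngII and 784 ± 226 in Control (SD, n = 3 each). AngII replicate 3, at the top for most members, was the middle library of its group. The log2 fold change was -0.11 (SE 0.26, limma adjusted p = 0.99989, 95% interval -0.74 to 0.51). The FPKM of this locus does not part the membrane form of IgM, made by B cells, from the secreted form, made in quantity by plasma cells.

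The order of mean levels over the 6 libraries was Ighm (752 FPKM), Cd79b (20.6), Cd79a (19.9), Ms4a1 (11.5), Cd22 (3.74), Pax5 (3.42), Fcer2a (2.88) and Cr2 (2.20). Ighm above Cd79b, Cd79a above Ms4a1 and Ms4a1 above Cd22 held in all 6 libraries. The neighbours Cd79b and Cd79a, Cd22 and Pax5, and Fcer2a and Cr2 kept their order in 4 of 6 libraries, and Pax5 and Fcer2a in 5 of 6, so these pairs were not parted beyond their spread.

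After the values were seen, Cd79a was set against a T cell transcript of the same libraries. It stood at 1.72%, 2.32% and 7.47% of the FPKM of Cd3e, which encodes the CD3 epsilon chain, in AngII replicates 1, 2 and 3. In Control replicates 1, 2 and 3 it stood at 1.95%, 3.11% and 7.83%. These are ratios of transcript levels, not shares of cells. Ighm, in contrast, was above Cd3e in all 6 libraries. The highest value of a gene over the 6 libraries was between 2.41 and 5.14 times its lowest for the 7 members other than Ighm, and 1.90 times for Ighm. Over the genes tested the median of this spread was 1.30, and 1159 of 11842 (9.79%) reached 2. Another 340 were listed at 0 in a library, so their spread had no value and was not counted as reaching 2. The 10 CD4 T cell markers, among them Trac, Cd3e and Cd3g, had spreads between 1.11 and 1.32, and Cd4 itself lay between 214 and 238 FPKM in AngII and between 203 and 254 FPKM in Control.

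**Figure D2:**
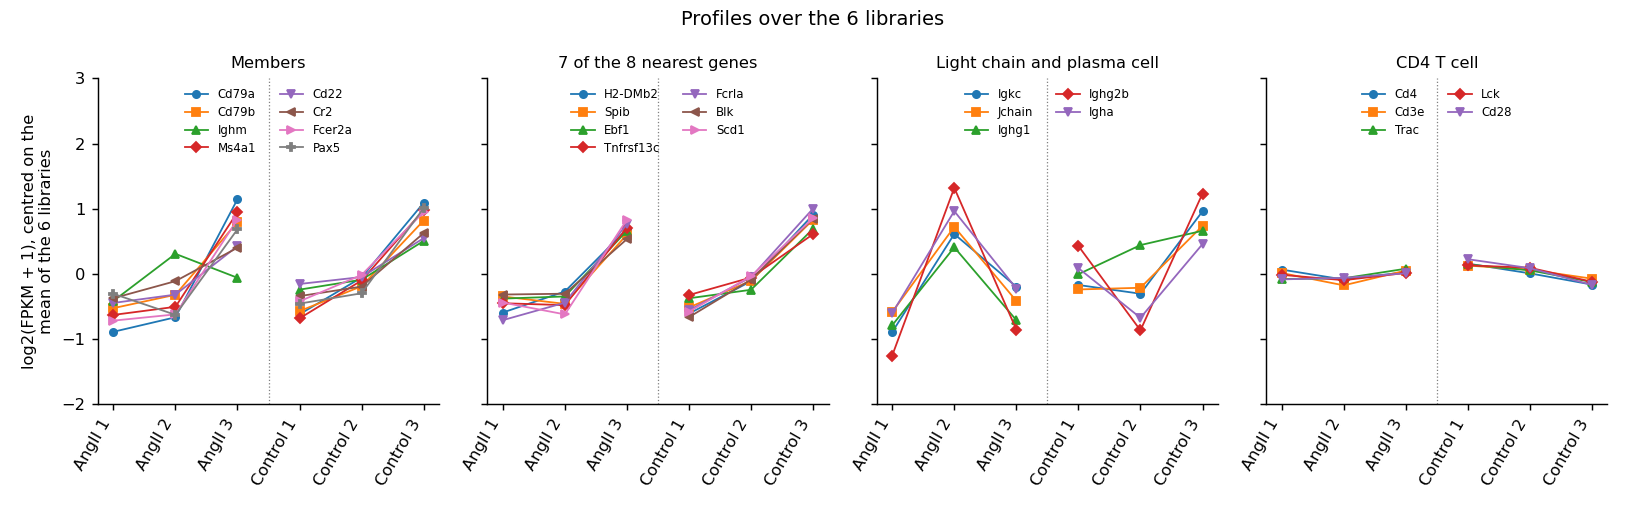
Level of each gene by library as log2(FPKM + 1), centred on the mean of the 6 libraries, for the members, 7 of the 8 genes of most similar profile, 5 light chain and plasma cell genes and 5 CD4 T cell genes. Points stand for libraries, and lines join the libraries of a group. Members other than Ighm peak in replicate 3 of both groups, and so do the similar genes shown, which were picked for likeness to the members' mean profile. The light chain and plasma cell genes shown peak in AngII replicate 2 and Control replicate 3, and the T cell genes are nearly flat.

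Genes whose profile was most like that of the members included several known from B cells. Likeness was the root mean square difference between a gene's centred log2(FPKM + 1) values and the members' mean profile over the 6 libraries, compared for 11834 genes outside the set, which had a median of 0.544. Among the nearest 8 with a gene name were H2-DMb2 (0.0923), a chain of the peptide-loading factor of MHC class II, and the transcription factors Spib (0.0963) and Ebf1 (0.0994). The BAFF receptor gene Tnfrsf13c (0.120), the Fc receptor-like gene Fcrla (0.133), the Src-family kinase gene Blk (0.141) and the fatty acid desaturase gene Scd1 (0.155) followed. A gene without a name in the sources stood ahead of them. Ebf1 had 1.03, 1.08 and 3.18 FPKM in AngII libraries, against 1.04, 1.23 and 3.27 FPKM in Control libraries. The mean profile includes every measured member, so the distances of members are not comparable with these; Ighm was the farthest of them, at 0.427, and Cd79b the nearest, at 0.0877.

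Ratios were tested between 5 pairs of members, none of them with Ighm. The ratio of Ms4a1 to Cd79a was 0.718, 0.668 and 0.532 in AngII libraries, against 0.560, 0.580 and 0.567 in Control libraries. Its highest value was 1.35 times its lowest, where Cd79a itself varied 4.47 times. The ratio of Cd79b to Cd79a was 1.496, 1.47 and 0.877 in AngII libraries, against 1.18, 1.02 and 0.928 in Control libraries, lowest in replicate 3 of both groups.

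The ratio of Cd22 to Cd79a also was lowest there, at 0.278, 0.265 and 0.136 in AngII libraries, against 0.298, 0.215 and 0.156 in Control libraries. The ratio of Pax5 to Cd79a was 0.264, 0.158 and 0.143 in AngII libraries, against 0.184, 0.142 and 0.194 in Control libraries. The ratio of Fcer2a to Cr2, a follicular against a marginal zone mark, was 0.805, 0.678 and 1.69 in AngII libraries, against 1.11, 1.44 and 1.52 in Control libraries. AngII replicates 1 and 2 lay below every Control library in that ratio and AngII replicate 3 above them, so the groups overlapped.

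None of the 5 ratios differed between AngII and Control in a two-sided exact permutation test of the log2 ratios, where 3 libraries against 3 cannot go below p = 0.1. The log2 difference was 0.26 for Cd79b to Cd79a (exact p = 0.4), 0.16 for Ms4a1 to Cd79a (exact p = 0.4) and -0.46 for Fcer2a to Cr2 (exact p = 0.4). It was -0.00099 for Cd22 to Cd79a (exact p = 1) and 0.08 for Pax5 to Cd79a (exact p = 0.8). Adjusted over the 5 ratios, p was 0.667 or higher.

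**Figure D3:**
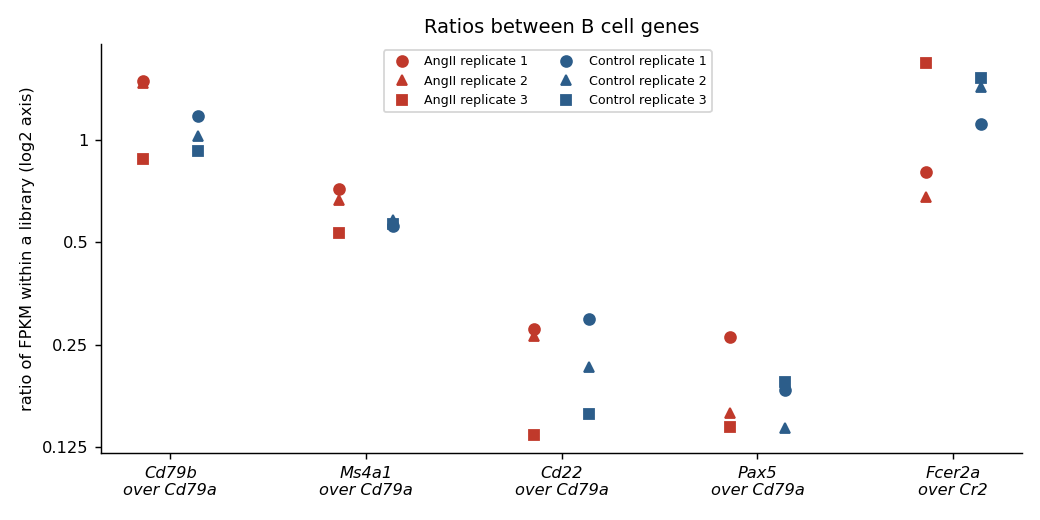
Ratio of FPKM between pairs of B cell genes within each library, on a log2 axis, with AngII in red and Control in blue and a symbol for each replicate number. The ratio of Ms4a1 to Cd79a stays between 0.532 and 0.718, and the ratio of Fcer2a to Cr2 is lowest in AngII replicates 1 and 2.

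Across AngII and Control, 0 of the 8 members passed limma in either direction, where 4 of 11842 genes (0.0338%) did, and 0 of the 8 had an unadjusted p under 0.05, where 208 of all genes did. All 8 fold changes were below 0 (median -0.15), against 52.0% of all genes, whose median was -0.0040. The members share their libraries and most share an order, so these are not 8 separate observations. With 1 library left out the direction turned: 7 of the 8, all except Cd22, were above 0 without Control replicate 3. In none of the 8 were the groups apart, against 5.84% of all genes. In the authors' deposited table, whose 2 conditions are named only by number, the authors' own test gave p-values from 0.0892 (Fcer2a) to 0.7682 (Cd79b) and a q of 0.999918 for each of the 8 members. That table joins Ighm with Ighg2b and Ighg2c in 1 row.

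Without replicate 3 of both groups, a choice made after the values were seen, none of the 8 passed limma. The log2 fold changes were then -0.44 for Cd79a (SE 0.23) and -0.45 for Fcer2a (SE 0.21), -0.28 for Cd22 (SE 0.14) and -0.18 for Ms4a1 (SE 0.23). They were -0.04 for Cd79b (SE 0.17) and -0.09 for Pax5 (SE 0.19), and turned to 0.11 for Ighm (SE 0.27) and 0.03 for Cr2 (SE 0.18).

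**Figure D4:**
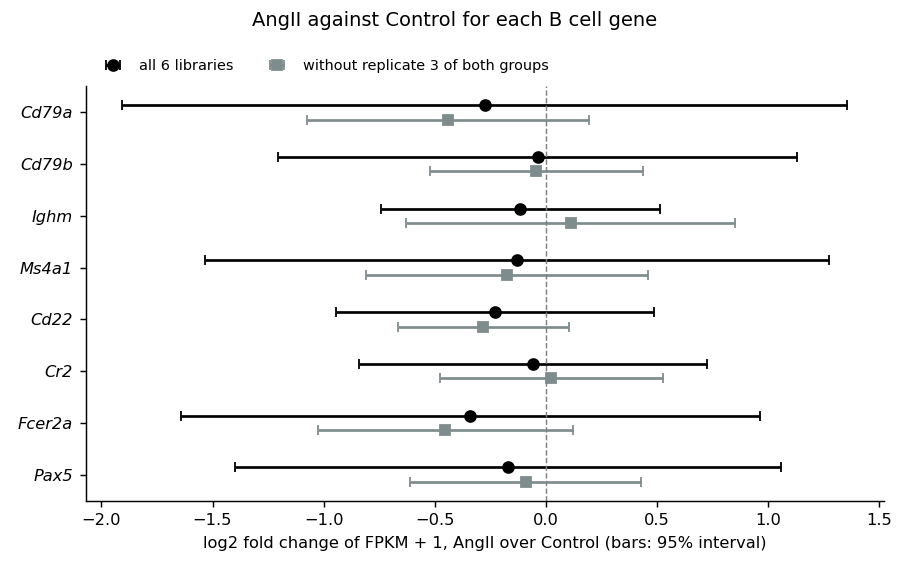
Log2 fold change of FPKM + 1, AngII over Control, for each measured B cell gene with its 95% limma interval, from all 6 libraries (black circles) and without replicate 3 of both groups (grey squares). Every interval includes 0, and the widest, for Cd79a, runs from -1.91 to 1.36.

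Other genes of the B cell receptor pathway did not pass either. Of 16 signalling and coreceptor genes, 0 passed limma in either direction, 8 had values above 0 and 8 below, and the median log2 fold change was -0.00127. In 8 of the 16, replicate 3 of both groups held the highest 2 values. Fcgr2b, the inhibitory Fc receptor, had 1.35, 1.83 and 3.67 FPKM in AngII libraries, against 1.16, 1.44 and 3.94 FPKM in Control libraries. The most abundant members of this list were Ptpn6, Cd81 and Prkcb, which T cells or myeloid cells also express. Ptpn6, a phosphatase that damps antigen receptor signals, had 119, 111 and 130 FPKM in AngII libraries, against 128, 118 and 128 FPKM in Control libraries, with a spread of 1.17. Prkcb, a protein kinase C, had 37.2, 33.2 and 38.1 FPKM in AngII libraries, against 41.1, 35.2 and 33.5 FPKM in Control libraries, highest in Control replicate 1.

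Of 10 B lineage transcription factors, 0 passed limma, 5 had values above 0 and 5 below (median log2 fold change 0.0027), and 5 had both libraries numbered 3 on top. Pou2af1, the octamer coactivator, had 12.7, 15.6 and 20.2 FPKM in AngII libraries, against 14.4, 14.1 and 21.3 FPKM in Control libraries. The most abundant of the list, Tcf3, Irf8 and Ikzf3, are also used by T or myeloid cells, and Tcf3 varied by no more than 1.13 times.

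Of 16 further genes known from B cells, most of them for surface molecules, 0 passed limma, 7 had values above 0 and 9 below (median -0.03), and 8 had both libraries numbered 3 on top. Those 8 include Scd1 and Ralgps2, which do not encode surface receptors. Cd74, the MHC class II invariant chain of all antigen-presenting cells, had 414, 373 and 588 FPKM in AngII libraries, against 311, 276 and 876 FPKM in Control libraries. Fcmr, the IgM Fc receptor gene, named after its values were seen, had 5.94, 4.86 and 21.0 FPKM in AngII libraries, against 5.48, 8.45 and 18.8 FPKM in Control libraries. Cd37, a tetraspanin of lymphocytes, ranged from 182 to 217 FPKM in AngII and from 209.3 to 209.8 FPKM in Control. Ly86, which pairs with CD180 and is found on B and myeloid cells, was highest in AngII replicate 2 (46.6 FPKM).

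Genes linked to particular B cell states did not pass either. Of 8 marginal zone genes 6 were tested and 0 passed, and 1 of them, Mzb1, a chaperone of B and plasma cells, had the order of the members. The most abundant of the list was Cd9, a tetraspanin also made by other blood cells, with 140, 131 and 138 FPKM in AngII libraries, against 105, 116 and 168 FPKM in Control libraries. Dtx1, a Notch target that T cells also express, was the only tested gene of these B cell lists whose groups did not overlap, where 5.84% of all genes tested did not, with 109, 84.5 and 114 FPKM in AngII libraries, against 115, 123 and 121 FPKM in Control libraries. Its log2 fold change was -0.23 (SE 0.12) and did not pass (limma adjusted p = 0.99989). Of 8 germinal centre genes 4 were tested, namely Fas, Bcl6, S1pr2 and Mki67, none passed and none had the order of the members. Mybl1, a Myb family factor below the minimum for testing, also had groups that did not overlap, with 0.260, 0.189 and 0.164 FPKM in AngII libraries, against 0.112, 0.102 and 0.138 FPKM in Control libraries. Rgs13, of the same list, was listed at 0 in AngII replicate 1.

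The most abundant genes of antibody secretion had another order than most members. Igkc, the kappa light chain constant region, had 767, 2180 and 1244 FPKM in AngII libraries, against 1267, 1154 and 2775 FPKM in Control libraries. Jchain, which links IgM and IgA units, had 69.1, 173 and 77.9 FPKM in AngII libraries, against 88.2, 89.7 and 174 FPKM in Control libraries. AngII replicate 2 and Control replicate 3 were highest in both, as for Ighm. Of 11 plasma cell genes tested 0 passed, 3 had values above 0 and 8 below (median log2 fold change -0.19). Of the 11, 2 (Xbp1 and Prdm1) had the order of the members, as did 1 of 2 light chain genes (Iglc2). The summed level of all 12 genes of the list was 264, 657 and 307 FPKM in AngII libraries, against 453, 304 and 773 FPKM in Control libraries. The ratio of Ighm to Igkc was 0.716, 0.417 and 0.566 in AngII libraries, against 0.490, 0.597 and 0.376 in Control libraries, a spread of 1.91. Ighm alone spread 1.90 times, so dividing by Igkc did not narrow it. The ratio of Ighm to Cd79a spread 4.86 times, where Cd79a alone spread 4.47 times. Both ratios were chosen after the values were seen. The part of the antibody secretion genes in the Ighm values was not tested.

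Markers of further cell types were set beside the members. The 10 macrophage genes, summed, had 1290.5, 2459 and 1251 FPKM in AngII libraries, against 1008, 1436 and 1701 FPKM in Control libraries, with AngII replicate 2 on top and none of the 10 in the order of the members. The 9 neutrophil genes summed to 24.7, 78.1 and 73.1 FPKM in AngII libraries, against 8.98, 9.51 and 45.7 FPKM in Control libraries, and Ly6g was listed at 0 in all libraries except Control replicate 1. The 8 CD8 T and NK cell genes summed to 153, 141 and 183 FPKM in AngII libraries, against 152, 198 and 223 FPKM in Control libraries, and the 8 dendritic cell genes to 68.5, 67.0 and 74.4 FPKM in AngII libraries, against 64.5, 81.8 and 84.4 FPKM in Control libraries. The 7 erythroid genes summed to 180, 443 and 668 FPKM in AngII libraries, against 284, 479 and 474 FPKM in Control libraries, and the 7 platelet genes to 241, 175 and 218 FPKM in AngII libraries, against 105, 119 and 276 FPKM in Control libraries. The order of the members was seen in 3 of 7 tested CD8 T and NK cell genes (Cd8b1, Ncr1 and Gzma), 2 of 7 erythroid, 2 of 7 platelet, 1 of 7 neutrophil and 1 of 5 dendritic cell genes. None of the genes in these lists passed limma. In none of the 6 sums did the libraries numbered 3 hold the highest 2 values. The summed members lacked that order too, with 584, 947 and 814 FPKM in AngII libraries, against 657, 741 and 1156 FPKM in Control libraries. A sum is led by its most abundant genes, so these sums do not show whether the lists share the members' order. Whether any of these cell types adds to the B cell values was not tested.

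The 4 genes that passed limma were all lower in AngII and none was a member, and those given here are named for that result alone. All 3 AngII libraries list the mitochondrial genes mt-Nd4 and mt-Co2 at 0, against Control means of 5761 and 16555 FPKM. Why they are listed at 0 was not tested. Fam220a averaged 3.04 FPKM in AngII and 17.1 FPKM in Control. Summed FPKM lay between 613674 and 717286, 11438 to 11757 genes reached 1 FPKM, and at most 1.66% of tested genes had equal values in any pair of libraries. The labels name no batch and the files give no count of fragments, so depth is known only relatively. The most common step between libraries among genes under 0.05 FPKM lay between 0.966 and 1.06 times that of AngII replicate 1. Only a limited range of steps around equality was searched, so a large difference in depth could not have appeared there. The part of depth in the B cell values was not tested.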

How the data were processed

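Libraries of splenic CD4+ T cells came from 3 AngII and 3 Control mice. Per the submitters' processing notes, the tools were Trimmomatic 0.32, TopHat2 2.1.1 and Cuffdiff, with build GRCm38.p3; no source used here names the annotation or the program that wrote the FPKM files. The authors deposited 1 file of FPKM per library, and a table with a p-value and a q-value per gene, per the file headers. Its conditions are numbered only, so its levels and fold changes were not used.

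Members were matched by gene name, and Ighm by identifier, since its name is blank in the files. Symbols came from GENCODE M21 by identifier for 37605 of 39171 rows. Values were tested as log2(FPKM + 1), for the 11842 genes whose mean reached 1 FPKM, with limma 3.58.1 in R 4.3.3 (eBayes with trend, two-sided, Benjamini-Hochberg adjusted p below 0.05); fold changes on this scale understate those of low genes. The code was tested on simulated data. Ratios were tested over 5 pairs; the planned ratio of Ighd to Ighm could not be formed. Also used were scipy 1.17.1, numpy 2.4.6, pandas 2.3.3 and matplotlib 3.10.9 in Python 3.11.15.

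The members, lists and motifs were chosen with earlier results of these data known. Named genes were the members, the 3 most abundant genes or any past the threshold of each list, and the 8 nearest profiles, of which 1 is not reported here; genes named for their order, spread or lack of overlap (Fcgr2b, Pou2af1, Fcmr, Ly86, Mzb1, Dtx1, Mybl1, Rgs13, Ly6g, Ralgps2, Xbp1, Prdm1, Cd8b1 and Ncr1) were chosen after their values were seen. Replicates are separate mice. The alternatives were another pseudocount, filter or scaling, eBayes without trend, the replicate number as a block, and leaving out libraries.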

Additional observations from a re-analysis of the deposited data

How the results depend on the processing

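No member passed limma under any of 15 alternatives (lowest adjusted p = 0.742), and 99 of 116 alternative fold changes kept their direction. Those from the filter, trend and block alternatives are among the 99 by design, since these settings cannot change a gene's fold change. The scaling and pseudocount alternatives turned none. With 1 library left out the log2 fold change lay between -0.92 and 0.20 for Cd79a, -0.44 and 0.36 for Cd79b, -0.30 and 0.11 for Ighm, -0.63 and 0.33 for Ms4a1, -0.27 and 0.24 for Cr2, -0.84 and 0.050 for Fcer2a, -0.55 and 0.29 for Pax5, and -0.50 and -0.011 for Cd22. It turned above 0 without Control replicate 3 in the first 7, without AngII replicate 1 in 5 and without AngII replicate 2 in 3, while Cd22 stayed below 0. Without replicate 3 of both groups Ighm (0.11) and Cr2 (0.026) turned. The cause was not tested. With a filter at a mean of 5 FPKM, Cd22, Cr2, Fcer2a and Pax5 have no value.

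The count of genes past the limma threshold, 4, was 7 without a filter, 12 without replicate 3 of both groups and between 4 and 9 with 1 library left out. The log2 difference of the ratio of Cd22 to Cd79a turned to 0.047 with a pseudocount of 1 and to 0.099 without replicate 3 of both groups, and lay between -0.23 and 0.33 with 1 library left out. That of Pax5 to Cd79a lay between -0.19 and 0.25 with 1 library left out, that of Cd79b to Cd79a between 0.13 and 0.51, that of Ms4a1 to Cd79a between 0.068 and 0.28 and that of Fcer2a to Cr2 between -0.86 and -0.20.

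Same-numbered replicates did not deviate together over all genes (correlations -0.080, -0.023 and -0.035). These correlations take in all genes and do not show whether a smaller set, such as the members, deviates together. Whether same-numbered replicates share more than a number was not tested. With the replicate number as a block the count was 3 and no member was called. The standard error was then 0.15 for Cd79a and 0.067 for Cd79b, against 0.67 and 0.48 without the block. With no fragment counts, the counting precision of low members such as Cr2 is not known.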
